A study of Homo sapiens with 6 samples.

Results

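Processed pseudogenes with read counts of some size were followed in Ishikawa cells, a human endometrial cancer line, after knockdown of TCF19. Members were chosen by level: all genes annotated as processed pseudogene or transcribed processed pseudogene were taken whose mean count over the 6 libraries was at least 50. This rule took 235 of the 10672 processed pseudogenes in the table, or 2.20%, and the table lists 58735 genes in all. Of the 235, 199 were annotated as processed and 36 as transcribed processed. A further 5844 processed pseudogenes had no count in any library. The rule used the level over all libraries and not the difference between groups, so the levels that follow describe the choice. Near the threshold, however, a mean of 50 can be reached through 1 group alone. AC009533.2 had 52, 97 and 58 counts in the control libraries (siNC) and 36, 28 and 29 after knockdown (siTCF19). BTF3L4P2 and AL139095.2 also lay under 50 counts in every siTCF19 library, and FTH1P8 in every siNC library. For such members the choice leans on the change. Just inside the threshold stood AP005264.5, AC009533.2 and RPS18P9, each with a mean count of 50, and just outside it ZC3H11B, KRT8P12 and AC069499.1, with 48.7, 49.7 and 49.8.

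A processed pseudogene is a copy of a messenger RNA that was reverse transcribed and inserted elsewhere in the genome, usually without introns and without the promoter of its source gene. Genes that are strongly expressed in the germ line, such as those for ribosomal proteins, have left many such copies. Most copies have lost their reading frame, some are transcribed, and because they resemble the messenger RNA of the source gene, called the parent here, short reads of one can be hard to tell from reads of the other.

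Ishikawa cells were transfected by lipofection with a negative control siRNA (siNC, 3 libraries) or with siRNA against TCF19 (siTCF19, 3 libraries), and RNA was taken 48 hours later. Both groups were grown in DMEM with serum and received the same transfection reagent. The labels give 1 cell line and no separate siRNA sequences against TCF19, and they do not tie the libraries of a group to separate cultures. The p-values therefore measure only the spread between these libraries, which may be technical. Library totals ran from 14680022 to 16244705 counts.

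TCF19, the targeted gene, had 2572, 2905 and 2756 counts in the siNC libraries and 675, 529 and 606 in the siTCF19 libraries. It was 4.59 times lower (95% interval 4.22 to 5.00; log2 fold change -2.20 ± 0.06 SE). The 7 epithelial markers EPCAM, KRT8, KRT18, KRT19, CDH1, PAX8 and MUC1 summed to between 2708 and 3000 CPM (counts scaled to library size with TMM factors) in all libraries. Single markers within this sum moved in opposite directions: KRT8 ran from 862 to 913 CPM in siNC and 639 to 694 in siTCF19, KRT18 from 253 to 283 and 195 to 198, KRT19 from 189 to 200 and 251 to 280, CDH1 from 192 to 205 and 302 to 305, and MUC1 from 9.62 to 12.9 and 16.4 to 18.7. The leukocyte markers PTPRC, CD3E and CD68 together stayed at or under 1.35 CPM. Of 3 fibroblast markers DCN was at 0 throughout, and their sum ran from 177 to 180 CPM in siNC and from 124 to 134 CPM in siTCF19, most of it COL1A2, while COL1A1 ran from 16.8 to 18.8 CPM in siNC and from 24.9 to 29.5 CPM in siTCF19. Of 3 endothelial markers VWF held most of a sum of 6.56 to 6.99 CPM in siNC and 13.8 to 17.2 CPM in siTCF19, while PECAM1 and CDH5 went the other way, from 0.412 to 0.955 and 0.825 to 1.22 CPM in siNC to at most 0.190 and 0.316 CPM in siTCF19. What part these shifts have in the results was not tested. CPM is a share of a library, so a change in the number of cells and a change in RNA per cell cannot be told apart.

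More processed pseudogenes fell than rose with the knockdown, and most were not called. Of the 235 members, 69 fell, 15 rose and 151 did not pass an adjusted p of 0.05 in edgeR's quasi-likelihood test, so that 29.4% fell and 6.38% rose. Among all 17299 tested genes 41.5% were called, 20.7% higher and 20.8% lower. Of the tested genes with a mean of 50 counts or more, 51.1% were called, 24.9% higher and 26.2% lower. The share of members that fell was near this background and the share that rose was below it. The background is not matched for level: the median mean count was 119 over members, 304 over all tested genes and 590 over those with a mean of 50 or more. The median log2 fold change was -0.11 over members and 0.00 over all tested genes. Standard errors were larger for members, with a median of 0.15 against 0.10 over all tested genes. The groups did not overlap in CPM for 93 members, or 39.6%, against 49.2% of all tested genes and 57.6% of those with a mean of 50 or more. Unprocessed pseudogenes, which arise by duplication of the gene itself, are listed for comparison: of 216 with a mean of 50 or more, 35 rose and 32 fell.

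Members took a small and reduced share of the libraries. They held 0.494%, 0.488% and 0.489% of all counts in the siNC libraries and 0.434%, 0.451% and 0.453% in the siTCF19 libraries. Every siTCF19 library lay below every siNC library. The means were 0.490% ± 0.003 and 0.446% ± 0.011 (SD, n = 3). Copies of ribosomal protein genes held 0.201% ± 0.002 of the counts in siNC and 0.172% ± 0.004 in siTCF19 (SD, n = 3). The 12 most abundant members held 41.4% of the members' counts. Member levels ran from 3.25 to 520 CPM with a median of 7.79, and per length the median was 10.9 FPKM.

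The symbol without its P and number named a parent for 147 members, which shared 114 parents, and 26 parents had 2 or more copies among the members. Of 112 tested parents, 70 (62.5%) fell, 18 (16.1%) rose and 24 were not called, with a median log2 fold change of -0.26. Among tested genes with a mean of 50 counts or more, 26.2% fell and 24.9% rose. DUXA, named by 2 members, was listed at 0 counts, and MEIS3, named by MEIS3P1, had too few counts to be tested. Of the other 144 pairs, pseudogene and parent both fell in 49 and both rose in 10. In 55 pairs the parent was called and the pseudogene was not. Parents held more counts, with a median mean count of 5375.5 and a median standard error of 0.046. Members with a parent had 147.5 and 0.135, so smaller changes could be called in parents. In 2 pairs, GTF2IP4 with GTF2I and GCSHP5 with GCSH, the pseudogene was called and the parent was not, in 27 neither was, and in 1 the calls went opposite ways. In that last pair the pseudogene's call was lost with DESeq2 (adjusted p = 0.053). The pseudogene stayed called in 2 of the 6 fits that left out 1 library. The log2 fold changes had the same sign in 122 of the 144 pairs.

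Across the 144 pairs the change of the pseudogene followed that of the parent (Pearson r = 0.79, Spearman rho = 0.79, a description across genes of the same 6 libraries). Without DUSP8P5, the pair farthest from equal change, r was 0.83 while rho stayed at 0.79. No pair close to equal change was left out in this way. The difference between pseudogene and parent had a median size of 0.14 on the log2 scale, and the median standard error of that difference was 0.19. It was above 0 in 90 pairs and below 0 in 54, with a median of 0.08. A test of the difference itself, an edgeR interaction of group and gene kind over 427 tested pairs with pseudogenes of lower level included, called 0 pairs (0.0%) at an adjusted p under 0.05. At an unadjusted p under 0.05 it gave 62 of the 427 pairs, or 14.5%, and 8 of them were among the 144. DESeq2 called 4 pairs (0.937%) and limma on the log2 differences 2 (0.468%). The 95% interval of a difference, not adjusted for the number of pairs, reached a median of 0.43 to either side. Calls were adjusted over 427 pairs, so larger differences could also go uncalled, as did the largest, -1.61. The 0 called pairs therefore do not show that differences above 0.43 are absent.

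**Figure D1:**
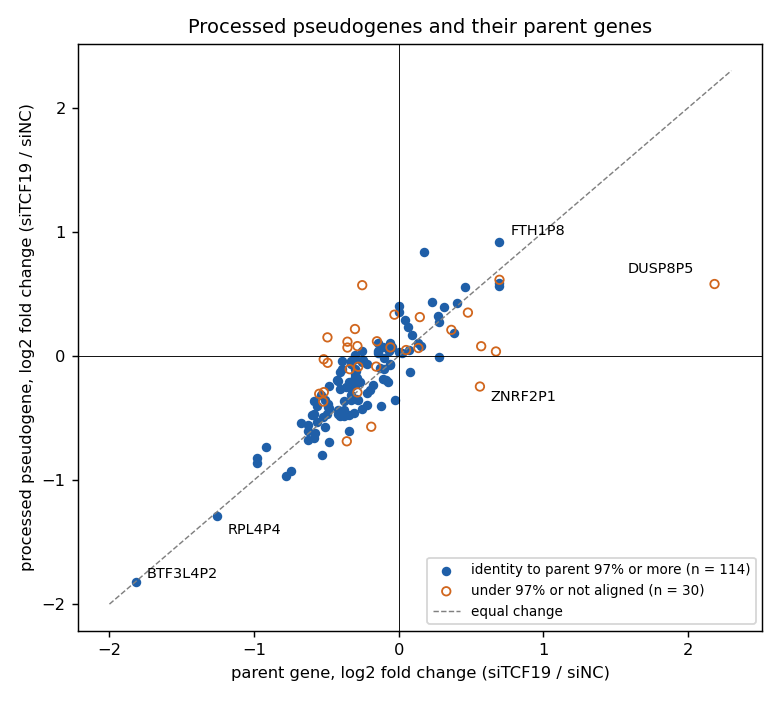
Log2 fold change (siTCF19 over siNC) of 144 processed pseudogenes against that of their parent genes. Filled points are 114 pairs with at least 97% sequence identity and open points the other 30, under 97% or not aligned. The dashed line marks equal change, and DUSP8P5 lies farthest from it.

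Copies of cytosolic ribosomal protein genes were the largest group with a known role. These genes encode the protein parts of the ribosome. Of 46 members, 25 fell, 1 rose and 20 were not called, with a median log2 fold change of -0.28. Their 31 parents included 28 that fell, with a median of -0.48, and 3 that were not called (RPL22, RPS20 and RPSA). With scaling by library size only, 21 of the 46 members fell and 1 rose, and with DESeq2 22 fell and 0 rose.

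RPL4P4, a copy of RPL4 (large subunit), showed the deepest fall of this group. It lies on chromosome 3 within MAP3K13, on the opposite strand, at chr3:185417495-185418778 (hg38), and shares no exon bases with that gene. In siNC it had 98, 124 and 138 counts, against 50, 42 and 56 in siTCF19, so that every siTCF19 library lay below every siNC library. It was 2.45 times lower (95% interval 1.92 to 3.12; log2 fold change -1.29 ± 0.17 SE, edgeR adjusted p = 5.51e-08). RPL4 itself had 19065, 19681 and 19865 counts in siNC and 8548, 7693 and 8520 in siTCF19, a log2 fold change of -1.26 ± 0.04. The pseudogene had the same base as the coding sequence of RPL4 at 1261 of 1281 aligned bases. The window of 30 coding bases with the most differences shows how far a read could separate them, with differing bases in capitals, at chr3:185417678-185417707 on the minus strand (hg38) and at coding bases 1072 to 1101 of RPL4, a gene on chromosome 15:
RPL4P4: gcagcAgcactacCagccaaatcagatgaA
RPL4: gcagcGgcactacAagccaaatcagatgaG

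Copies of RPS3A, a small-subunit protein, fell together. RPS3AP6 had 333, 344 and 339 counts in siNC and 192, 197 and 192 in siTCF19, and RPS3AP26 had 140, 134 and 113 against 62, 91 and 62. In both copies the groups stood apart. Their log2 fold changes were -0.82 ± 0.10 and -0.86 ± 0.17 (SE), beside -0.98 ± 0.04 for RPS3A. RPL26P19 (-0.92) and RPL7AP6 (-0.80), copies of large-subunit genes, fell by more than their parents' point estimates (-0.74 and -0.53), without a called difference.

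RPL9P9 was the most abundant ribosomal copy that kept its call in every setting tried. It had 4689, 4940 and 5016 counts in siNC and 3494, 3304 and 3415 in siTCF19, with no overlap between groups (log2 fold change -0.53 ± 0.04 SE, edgeR adjusted p = 3.82e-13). RPL9, its large-subunit parent, changed by -0.56 ± 0.06. Per length the pseudogene was listed above its parent, at 373 FPKM against 42.1 FPKM for RPL9. FPKM divides by gene length, deposited as 5022 bases for RPL9, while RPL9P9 has 717 exon bases. Of the 100-base windows of RPL9P9, 74.5% also occurred in RPL9. RPL7P1 had 1622, 1676 and 1628 counts in siNC and 1174, 1052 and 1125 in siTCF19. These groups too stood apart, with a log2 fold change of -0.57 ± 0.06 beside -0.51 for RPL7.

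RPS2P5 was the most abundant member of all, with 7912, 8921 and 8009 counts in siNC and 7283, 7524 and 8208 in siTCF19. The counts of the groups overlapped. Its log2 fold change was -0.12 ± 0.05 (SE, edgeR adjusted p = 0.034), and this call was lost with library-size-only scaling (adjusted p = 0.285), with DESeq2 (0.051) and without siNC replicate 1 or 2 or siTCF19 replicate 1 (0.083, 0.174 and 0.356). RPS2, a small-subunit gene, fell by 0.29 on the log2 scale. RPS2P46, the other copy of RPS2, had 1878, 2152 and 2116 counts in siNC and 1948, 1660 and 1706 in siTCF19. In CPM its groups did not overlap, and it fell by 0.22 ± 0.05 (SE).

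RPLP0P6, a copy of the large-subunit gene RPLP0, was also among the 12 most abundant members. It had 1093, 1205 and 1135 counts in siNC and 1033, 1102 and 1105 in siTCF19. Its groups overlapped, at a log2 fold change of -0.10 ± 0.06 that was not called, while RPLP0 fell by 0.13.

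Copies of RPS7, another small-subunit gene, differed in their calls. RPS7P1 and RPS7P10 fell, by 0.42 and 0.69 on the log2 scale. RPS7P11 had 205, 215 and 222 counts in siNC and 212, 144 and 193 in siTCF19, a log2 fold change of -0.24 ± 0.12 that was not called. Without siTCF19 replicate 1 RPS7P11 was called lower (log2 fold change -0.34, edgeR adjusted p = 0.047). RPS7 itself fell by 0.48. The difference among the copies was not tested.

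All 4 copies of RPSA stayed uncalled, as did RPSA itself, which encodes a ribosomal protein also known as a laminin receptor precursor. RPSAP15 had 761, 691 and 728 counts in siNC and 916, 747 and 707 in siTCF19. The other copies, RPSAP58, RPSAP47 and RPSAP19, likewise overlapped between groups. Log2 fold changes ran from -0.07 for RPSAP19 to 0.10 for RPSAP15, each with a standard error of 0.08 to 0.18, beside -0.06 ± 0.04 for RPSA.

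**Figure D2:**
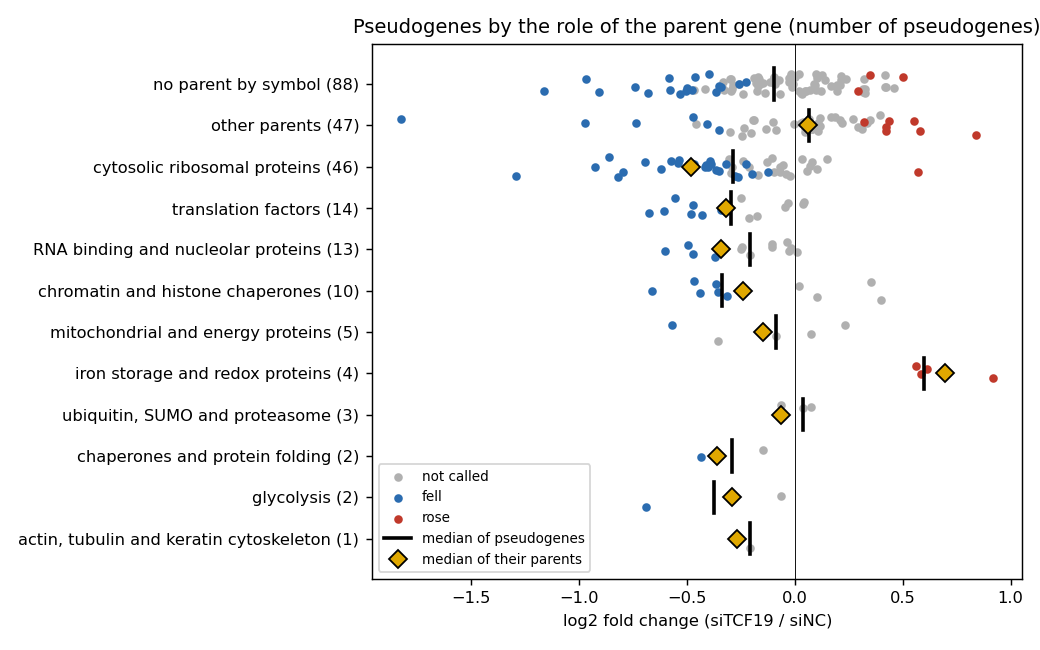
Log2 fold change of each of the 235 pseudogenes (points) by the role of the parent, coloured by call, with the median of the pseudogenes (bar) and of their parents (diamond). The 4 copies of FTH1, shown as iron storage and redox proteins, are the only group of 2 or more with all members called higher.

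Copies of translation factor genes came next in number. Of 14 members 7 fell and 7 were not called, with a median log2 fold change of -0.30. All 10 of their parents fell, with a median of -0.32. With DESeq2 6 of the 14 fell.

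All 3 copies of EIF4B fell. EIF4B is an initiation factor that helps the helicase EIF4A unwind messenger RNA. EIF4BP7 had 118, 138 and 133 counts in siNC and 99, 91 and 68 in siTCF19. EIF4BP6 had 127, 99 and 106 counts in siNC and 66, 89 and 55 in siTCF19. EIF4BP3 had 98, 107 and 74 counts in siNC and 74, 70 and 48 in siTCF19. In CPM no copy's groups overlapped, though in EIF4BP3 the lowest siNC library lay close to the highest siTCF19 libraries. Log2 fold changes were -0.60 ± 0.15, -0.67 ± 0.18 and -0.55 ± 0.18 (SE), beside -0.63 ± 0.04 for EIF4B. The call of EIF4BP3 was lost without siNC replicate 1 or 2 or siTCF19 replicate 3 (adjusted p = 0.065, 0.082 and 0.124).

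Copies of EEF1A1, the elongation factor that brings aminoacyl-tRNA to the ribosome, were less uniform. EEF1A1P5, the second most abundant member, had 4919, 5506 and 5186 counts in siNC and 4718, 5477 and 5033 in siTCF19. The groups overlapped, and the log2 fold change was -0.05 ± 0.05 beside -0.26 ± 0.04 for EEF1A1. Without siTCF19 replicate 2 EEF1A1P5 was called lower (log2 fold change -0.12, edgeR adjusted p = 0.040). EEF1A1P13 had 369, 339 and 331 counts in siNC and 314, 184 and 284 in siTCF19 and fell by 0.43. That call was lost with DESeq2 (adjusted p = 0.120) and without siTCF19 replicate 2 (0.070), its lowest library. EEF1A1P6 changed by 0.04 and was not called. The difference between EEF1A1P5 and its parent was 0.21 (95% interval -0.09 to 0.51).

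Copies of genes for RNA-binding and nucleolar proteins showed 4 that fell and 9 that were not called of 13, with a median of -0.21. Of their 10 parents 9 fell, with a median of -0.34. The falls were in YBX1P1 (-0.60), copied from a cold-shock RNA-binding protein, HNRNPCP2 (-0.47), from an hnRNP protein, and SERBP1P5 and SERBP1P1 (-0.49 and -0.37), from a ribosome-associated mRNA-binding protein. The call of SERBP1P1 was lost without siNC replicate 1 or siTCF19 replicate 1 (edgeR adjusted p = 0.088 in each). YBX1P1 had 192, 215 and 181 counts in siNC and 114, 116 and 161 in siTCF19, with the groups apart. Both copies of HNRNPA1 stayed uncalled, at -0.10 and -0.04, while HNRNPA1 fell by 0.39.

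Copies of chromatin and histone chaperone genes held 6 that fell and 4 not called of 10, with a median of -0.33, and 5 of their 6 parents fell. These were pairs of copies from 3 genes. PTMAP5 and PTMAP2 come from PTMA (prothymosin alpha), H3F3AP4 and H3F3AP6 from H3F3A (histone H3.3), and HMGB1P6 and HMGB1P5 from HMGB1, a DNA-bending protein. PTMAP5 had 1207, 1095 and 1133 counts in siNC and 813, 705 and 677 in siTCF19. HMGB1P6 had 1487, 1466 and 1629 counts in siNC and 1207, 1190 and 1218 in siTCF19. Neither copy's groups overlapped. The log2 fold changes were -0.66 ± 0.07 for PTMAP5, beside -0.59 for PTMA, and -0.36 ± 0.06 for HMGB1P6, beside -0.33 for HMGB1. Copies of HMGN1, HMGN2 and RBBP4 were not called, with values from 0.02 to 0.40.

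The remaining small groups held single falls. GAPDHP1, from the glycolytic enzyme GAPDH, had 321, 311 and 302 counts in siNC and 203, 189 and 194 in siTCF19. Its groups stood far apart, and it fell by 0.69, beside 0.36 for GAPDH, with a difference of -0.33 (95% interval -0.65 to -0.01, adjusted p = 0.321 over all pairs). HSPD1P1, from the mitochondrial chaperonin, fell by 0.44, a call lost with DESeq2 (adjusted p = 0.061) and without siNC replicate 2 or siTCF19 replicate 1 (0.251 and 0.092). TOMM20P4, from a mitochondrial import receptor, fell by 0.57, a call lost with DESeq2 (0.080) and without siNC replicate 2 or 3 or siTCF19 replicate 1 or 2 (0.179, 0.076, 0.068 and 0.144). With DESeq2, GAPDHP1 was thus the only call in these groups. The 3 copies of ubiquitin, SUMO and proteasome genes were not called, and neither were their parents.

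All 4 copies of FTH1 rose, as did their parent. FTH1 encodes the heavy chain of ferritin, which oxidises iron and stores it. FTH1P7 had 66, 82 and 75 counts in siNC and 119, 107 and 112 in siTCF19. FTH1P8 had 37, 46 and 42 counts in siNC and 106, 71 and 62 in siTCF19. In these copies every siTCF19 library lay above every siNC library. FTH1P2 had 49, 66 and 45 counts in siNC and 64, 96 and 78 in siTCF19, and FTH1P23 had 55, 31 and 33 against 66, 54 and 65. In FTH1P2 and FTH1P23 1 siTCF19 library fell within the siNC range. FTH1 had 12240, 13814 and 13542 counts in siNC and 23295, 19941 and 21571 in siTCF19.

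The log2 fold changes of these copies lay around that of FTH1, which was 0.70 ± 0.04 (SE). They were 0.92 ± 0.21 for FTH1P8, 0.59 ± 0.16 for FTH1P7, 0.61 ± 0.23 for FTH1P23 and 0.56 ± 0.20 for FTH1P2. By edgeR the adjusted p-values were 0.000357, 0.00218, 0.029 and 0.020. The calls of FTH1P2 and FTH1P23 were lost with DESeq2 (adjusted p = 0.060 and 0.078). FTH1P2 was also not called without siNC replicate 3 or siTCF19 replicate 2 (0.106 and 0.167), nor FTH1P23 without siNC replicate 2 or 3 or siTCF19 replicate 1 or 3 (0.155, 0.127, 0.075 and 0.072). FTH1P23 lies within GXYLT2 on the same strand, a gene with a mean of 13.2 counts. The other copies lie in no protein-coding gene. The copies stood at 1.08% to 1.98% of the FPKM of FTH1.

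**Figure D3:**
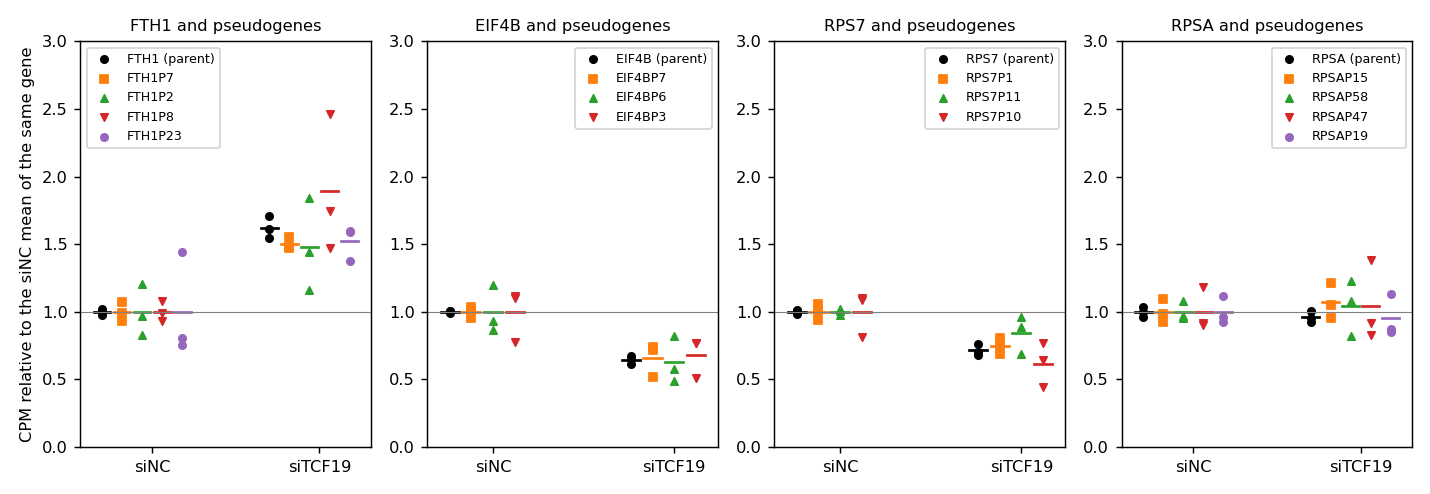
CPM of each library divided by the siNC mean of the same gene, for FTH1, EIF4B, RPS7 and RPSA (black) and their copies, with a short line at each group's mean (n = 3). Copies of FTH1 lie mostly above 1 and copies of EIF4B below 1 in siTCF19, and copies of RPSA spread around 1.

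Among the 47 copies of parents with other roles, 7 rose, 6 fell and 34 were not called, with a median of 0.07, and with DESeq2 4 rose and 4 fell. Of their 42 tested parents 17 rose and 11 fell, with a median of 0.06. This group held the deepest fall of all members, that of BTF3L4P2.

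BTF3L4P2 is a copy of BTF3L4, which resembles the nascent-chain factor BTF3. It lies at chr2:159003975-159004320 (hg38) inside an intron of TANC1, on the same strand. In siNC it had 81, 84 and 95 counts, against 23, 22 and 29 in siTCF19, with the groups far apart. It was 3.53 times lower (95% interval 2.61 to 4.78; log2 fold change -1.82 ± 0.22 SE, edgeR adjusted p = 3.39e-09). BTF3L4 had 1169, 1128 and 1120 counts in siNC and 323, 329 and 328 in siTCF19, a log2 fold change of -1.82 ± 0.07. TANC1 changed by -0.08. The pseudogene was identical to the coding sequence of BTF3L4 at all 345 aligned bases, so that no read from this stretch could be assigned by sequence, and 30 bases are shown at chr2:159003975-159004004 on the plus strand (hg38) and at coding bases 130 to 159 of BTF3L4, a gene on chromosome 1:
BTF3L4P2: aaaaaactggctgtgaataatatagctggt
BTF3L4: aaaaaactggctgtgaataatatagctggt

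Other falls of this group included FABP5P7 and POLRMTP1. FABP5P7 copies a fatty acid binding protein gene and had 174, 173 and 128 counts in siNC and 69, 82 and 94 in siTCF19. It was 1.96 times lower (95% interval 1.58 to 2.43), and FABP5 had a log2 fold change of -0.78 ± 0.07. POLRMTP1, from the mitochondrial RNA polymerase gene, fell by 0.74 and POLRMT by 0.92. GTF2IP4 had 310, 368 and 365 counts in siNC and 282, 258 and 284 in siTCF19 and fell by 0.35, while GTF2I, a transcription factor gene, was at -0.02 ± 0.05. GCSHP5 fell by 0.41, beside -0.13 ± 0.13 for GCSH of the glycine cleavage system. The call of GCSHP5 was lost with DESeq2 (adjusted p = 0.072) and without siNC replicate 1 or 3 or siTCF19 replicate 1 (0.081, 0.075 and 0.161). The differences of both pairs were not called.

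PDIA3P1 was the firmest rise among members. PDIA3 is a disulfide isomerase of the endoplasmic reticulum. The pseudogene had 277, 265 and 276 counts in siNC and 396, 384 and 432 in siTCF19, and the groups stood apart (log2 fold change 0.55 ± 0.09 SE, edgeR adjusted p = 3.31e-06). PDIA3 changed by 0.46 ± 0.04. TWF1P1, from an actin-monomer binding protein gene, rose by 0.44 beside 0.23 for TWF1, and RHEBP2, from the GTPase that activates mTORC1, by 0.32 beside 0.27 for RHEB. The call of RHEBP2 was lost without siNC replicate 3 (edgeR adjusted p = 0.072).

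MEIS3P1 rose by 0.42 on the log2 scale, with 126, 140 and 117 counts in siNC and 181, 168 and 169 in siTCF19. All siTCF19 libraries lay above all siNC libraries. MEIS3, a homeobox gene, was barely detected, at 0.044 FPKM against 10.1 FPKM for the pseudogene. Of the pseudogene's 100-base windows 0% occurred in MEIS3.

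Single libraries carried some of the rises. SPCS2P4 had 62, 76 and 134 counts in siNC and 48, 95 and 347 in siTCF19. Its log2 fold change was 0.84 ± 0.32, and without siTCF19 replicate 3 it turned to -0.34 (edgeR adjusted p = 0.281). It was also not called by DESeq2 (0.483) or without siNC replicate 1 or 2 (0.123 and 0.116). RALGAPA1P1 had 53, 79 and 98 counts in siNC and 115, 92 and 104 in siTCF19, and without siNC replicate 1 its log2 fold change went from 0.42 to 0.25 (adjusted p = 0.288). Its call was lost as well with DESeq2 (0.109) and without siNC replicate 2 or siTCF19 replicate 1 or 3 (0.081, 0.144 and 0.070). Of the 15 members that rose, 8 stayed called in all 6 fits that left out 1 library and 9 were called by DESeq2. Of the 69 that fell, the corresponding numbers were 49 and 56.

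DUSP8P5 rose less than its parent, and the size of this difference was the largest of the 144 pairs. DUSP8 is a phosphatase that acts on MAP kinases. The pseudogene lies at chr10:73731824-73733638 (hg38) inside GLUD1P3, an unprocessed pseudogene on the same strand with which it shares no exon bases. It had 53, 59 and 40 counts in siNC and 93, 68 and 69 in siTCF19, with the groups apart, and a log2 fold change of 0.58 ± 0.20 (SE, edgeR adjusted p = 0.016). This call was lost with DESeq2 (adjusted p = 0.0501) and without siNC replicate 3 or siTCF19 replicate 1 (0.117 and 0.118). GLUD1P3 itself rose by 0.57 (edgeR adjusted p = 0.023), close to the value of DUSP8P5. DUSP8 had 9, 14 and 7 counts in siNC and 49, 39 and 51 in siTCF19, a log2 fold change of 2.18 ± 0.33.

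The difference of DUSP8P5 from DUSP8 was -1.61 (95% interval -2.29 to -0.94). It missed the threshold in the edgeR pair test (adjusted p = 0.059) and passed it in DESeq2 (0.012) and in limma (0.041). No 100-base window of DUSP8P5 occurred in DUSP8 or in any other gene. The pair is shown as the one where the pseudogene and the parent differ most in response, with 9 differing bases in capitals, at chr10:73733003-73733032 on the plus strand (hg38) and at coding bases 1184 to 1213 of DUSP8, a gene on chromosome 11. Over the coding sequence 1668 of 1810 aligned bases agreed:
DUSP8P5: cGctgTacatcaaAtcAgcGAacAccccCG
DUSP8: cCctgGacatcaaGtcTgcCTacGccccTA

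Other pairs with a wide difference were ZNRF2P1, at -0.25 while ZNRF2, a ubiquitin ligase gene, rose by 0.56 (difference -0.80, 95% interval -1.26 to -0.35), and CENPBD1P1, at 0.04 while CENPBD1 rose by 0.67 (difference -0.63, interval -1.09 to -0.17). TUFMP1 was at 0.22 while TUFM, a mitochondrial elongation factor gene, fell by 0.30 (difference 0.52, interval 0.18 to 0.86). RPL13P5 was at 0.15 while RPL13 fell by 0.49 (difference 0.65, interval 0.14 to 1.15). None of these 4 passed the edgeR test over all pairs (adjusted p = 0.159, 0.203, 0.189 and 0.251). A limma fit with a variance trend over the pseudogene level, chosen after the result of the edgeR test was seen, called 8 of the 427 pairs (1.87%), with ZNRF2P1 (adjusted p = 0.026), CENPBD1P1 (0.009), DUSP8P5 (0.002) and CICP14 (0.037) the ones among the 144.

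The remaining 88 members had no parent by symbol. Of these 18 (20.5%) fell, 3 (3.41%) rose and 67 were not called, with a median log2 fold change of -0.09. The share that fell was near the 20.8% of all tested genes and below the 26.2% of those with a mean of 50 or more. The share that rose was below both backgrounds (20.7% and 24.9%). For 56 of the 88, a tested protein-coding gene matched at 90% identity or more over at least 80% of the pseudogene. In these, both fell in 9 and both rose in 1, and the signs were the same in 44. The gene matched was a ribosomal protein gene in several of the falls, as in AC116533.1 (RPL36A), AC024293.1 (RPS10), AC073861.1 (RPS18), AC115223.1 (RPL6), AC044787.1 (RPL7A) and AL139095.2 (RPS3). RPS10 itself was not called (edgeR adjusted p = 0.079). Other members matched to ribosomal protein genes were not called, some below 0 and some above it. Above 0 lay, for example, AC004057.1 (RPS26, 0.09), AC016739.1 (RPLP1, 0.22) and another match of RPL6, AC009245.1 (0.03).

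AC116533.1 was the most abundant of those 56. It had 1734, 1768 and 1681 counts in siNC and 1457, 1130 and 1189 in siTCF19, with the groups apart, and it fell by 0.47 beside 0.39 for RPL36A, with which it was identical over its whole length. AL139095.2 had 70, 87 and 56 counts in siNC and 34, 27 and 49 in siTCF19 and fell by 0.97, beside 0.56 for RPS3. BX679664.3 had 990, 996 and 775 counts in siNC and 660, 628 and 642 in siTCF19 and fell by 0.53, while RPL17, at 99.3% identity, was at -0.08 and not called. The 1 shared rise was AC138392.1, with 299, 308 and 275 counts in siNC and more in each siTCF19 library, 364 at the lowest (0.35), beside 0.36 for AIDA. AC138392.1 also lies within MIGA1 on the opposite strand, without shared exon bases, and MIGA1 rose by 0.76 (edgeR adjusted p = 4.2e-12). What part MIGA1 has in this rise was not tested.

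AC008038.1 had 2304, 2468 and 2392 counts in siNC and 1793, 1843 and 2069 in siTCF19 and fell by 0.34. It lies within CHCHD3 on the same strand and shares 172 of its 1314 exon bases with that gene, which changed by -0.04. The closest coding gene of AC008038.1, EEF1G at 99.2% identity, encodes an elongation factor subunit. EEF1G is listed at 0 counts in every library, so AC008038.1 was not among the 56. What lies behind the 0 counts of EEF1G was not tested. Further members of this kind had no close coding match. AC009533.2 had 52, 97 and 58 counts in siNC and 36, 28 and 29 in siTCF19. The groups did not overlap, and the log2 fold change was -1.16 ± 0.24, or -0.86 without siNC replicate 2. Its best coding match, WASHC1, had 75.7% identity. AL589987.1 had 81, 103 and 71 counts in siNC and 43, 52 and 42 in siTCF19 and fell by 0.91. AC006978.1 had 95, 117 and 123 counts in siNC and 153, 137 and 189 in siTCF19 and rose by 0.50. Only BTF3L4P2, RPL4P4 and AC009533.2 were called with a fall of at least 2-fold among the 235. Such falls were found in 375 of all 17299 tested genes and in 208 of the 12672 with a mean of 50 or more. BTF3L4P2 and AC009533.2 passed the level rule only through their siNC counts. The largest rise was that of FTH1P8, at 1.89-fold. No member rose by 2-fold, against 464 of all tested genes and 191 of those with a mean of 50 or more.

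The sequence of the members was close to that of their parents. Where an alignment to the parent transcript was found (144 of 147), the median identity of the aligned part was 98.4%, with 114 at 97% or more and 44 at 99% or more. Over members of at least 100 bases, a median of 25.9% of all 100-base windows occurred unchanged in the transcript of another gene. Of the 235, 12 had all their windows in another gene, BTF3L4P2 and AC116533.1 among them, and of these 6 fell and 6 were not called. At the other end 36 had no such window, of which 8 fell, 2 rose and 26 were not called. The sources used here do not give how reads matching several places were counted, and their part in these values was not tested.

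Pseudogene and parent were also compared by their identity. Among the 114 pairs at 97% or more, r was 0.91 and rho 0.87, and the median size of the difference was 0.12. Among the other 30 pairs, under 97% or not aligned, r was 0.51 and rho 0.52, and the median size was 0.30. Without DUSP8P5, r among these was 0.41, and 0.45 in the 27 that were aligned. The split at 97% was chosen after the values were seen, the lower group also held fewer counts per member (a median of 112 against 162), and the contrast between the groups was not tested.

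**Figure D4:**
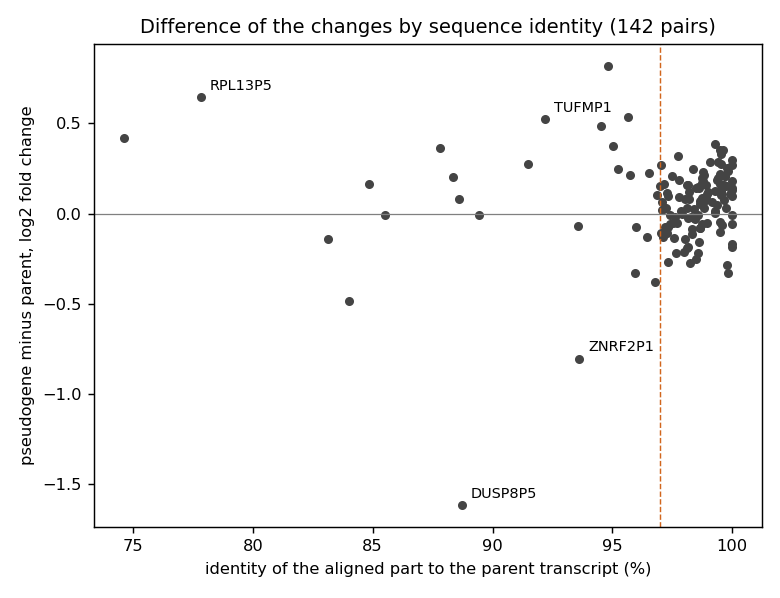
Difference in log2 fold change, pseudogene minus parent, against the sequence identity of the aligned part for the 142 tested pairs with an alignment. The dashed line marks 97%, and DUSP8P5 and ZNRF2P1, which lie farthest below 0, are both under it.

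Position was compared in the same way. Members lay on 23 chromosomes, and 7 of them on the chromosome of their parent. Of the 235, 93 lay inside a protein-coding gene, 36 on its strand and 57 on the other. Inside a coding gene on the same strand 11 fell and 3 rose, on the opposite strand 20 fell and 2 rose, and outside coding genes 38 fell and 10 rose. Across 74 members whose host gene was tested, r between member and host was 0.01. In the 43 members with both a tested parent and a tested host, r was 0.87 with the parent and -0.02 with the host, as a description across genes of the same libraries. Exon bases were shared with another gene in 32 members. Whether the counting used strand is not given, so reads from such overlaps cannot be told apart.

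Per length most copies were listed well below their parents. The median member stood at 17.3% of its parent's FPKM, 54 stood under 10% and 22 above 100%. Above their parents were RPL9P9, RPL39P3 (295 FPKM against 99.1 for RPL39), H3F3AP4 (117 against 68.4), HMGB1P6 (137 against 82.4) and MORF4L1P1 (70.5 against 38.9). FPKM divides by the deposited gene length, which was 5022 bases for RPL9, 7723 for HMGB1 and 6584 for MORF4L1. Their copies RPL9P9, HMGB1P6 and MORF4L1P1 have 717, 646 and 967 exon bases. In counts HMGB1P6 and MORF4L1P1 stood below their parents, whose means were 9842 and 3963, and RPL9P9 stood above RPL9 (3268). RPL39P3 and H3F3AP4 had every 100-base window in another gene. MORF4L1P1, from a chromatin-associated chromodomain protein gene, had 1058, 1028 and 1035 counts in siNC and 1125, 1046 and 1045 in siTCF19. Its groups overlapped, at a log2 fold change of 0.03 ± 0.06 beside 0.02 ± 0.05 for MORF4L1.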

How the data were processed

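The authors deposited 1 table of raw read counts and FPKM values per gene for the 6 libraries, per the file headers. The submitters' processing notes name HISAT2 2.0.5, featureCounts 1.5.0-p3 and the build hg38. The handling of multiple matches and of strand is not given here. Further columns, per the file headers, hold the authors' normalized group signal, a log2 fold change and p-values, from a tool not given here. An adjusted p under 0.05 is listed for 60 members in the authors' deposited table. The deposited gene length, in bases, entered only through FPKM.

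All 58735 gene coordinates equalled GENCODE release 29, and 27 symbols stored as dates were restored by identifier. Counts were tested with edgeR 4.0.16 (R 4.3.3; filterByExpr, TMM, quasi-likelihood test, Benjamini-Hochberg over 17299 genes, called at an adjusted p under 0.05). All 235 members and 112 of 114 parents passed the filter. Intervals are 95% from edgeR's standard error and degrees of freedom. Pairs were tested as an edgeR interaction. Alternatives were RLE and library-size-only scaling, other filters, DESeq2 1.42.0, limma 3.58.1, a replicate block, an adjusted p under 0.01, other membership rules and leaving out each library. The steps were tested on simulated data. Sequence identity came from BLAST 2.17.0 against GENCODE transcripts.

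Named were TCF19, the 12 members of highest CPM, the 8 largest called rises and the 8 largest falls without overlap, parents, families of 3 or more members, the 3 pairs of lowest p in each direction and the 3 members nearest the threshold on each side. Others are named because they were called in a role group, a choice made with their values in view. Some items that the rule names are not reported here. The members and lists were chosen with earlier results of these data known. A floor of 3 counts equals 0.190 to 0.206 CPM, and such limits leave out PCR copies, which cannot be recognised.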

Additional observations from a re-analysis of the deposited data

How the results depend on the processing

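The count of members that rose, 15, was 9 with DESeq2, 7 at an adjusted p under 0.01, 27 with membership from a mean of 25 and 8 with membership from a mean of 100. The count that fell stayed within 1.5 times of 69 in each setting run. Leaving out 1 library at a time gave 13 to 17 members higher and 61 to 69 lower, a median of members from -0.15 to -0.08, 15 to 18 parents higher and 67 to 70 lower, 3198 to 3470 of all genes higher and 3087 to 3331 lower, a TCF19 log2 fold change of -2.26 to -2.13 and 0 to 0 called pairs.

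Pairs called as different, 0 in edgeR, numbered 2 with a filter of 1 CPM in 3 libraries, 4 with DESeq2, 2 with limma and 8 with the limma variance trend added after seeing the data. With the replicate number as a block 9 pairs were called, and 16 members were higher and 67 lower, with RPS2P5 no longer called (edgeR adjusted p = 0.051). The numbers do not pair the samples: correlations of same-numbered libraries' deviations were 0.009, -0.024 and 0.021.

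Library-size-only scaling moved the median of all genes from 0.00 to 0.06 and that of members to -0.05. It gave 22 members higher and 60 lower, and the share of higher calls over all genes went from 49.9% to 61.4%. Of 658 values of 47 named members under the alternatives, 616 kept direction and call, 37 lost a call, 5 gained one and 0 reversed, a count that does not include SPCS2P4. Depth limits members near 50 counts, whose standard errors reach 0.35.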
